A study of Homo sapiens with 6 samples.

Results

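The 48 genes described here encode the machinery of mitosis: cyclins and kinases that start it, the kinetochore and spindle that move chromosomes, the checkpoint and protease switches that time their separation, and the proteins that compact and divide them. They were taken by name from a table of read counts per gene, where each of the 48 names matched 1 row, out of 39293 genes in all. The RNA came from SW480, an established human line of colorectal cancer cells. In 3 wells the cells received dihydroartemisinin (DHA), the compound to which artesunate and artemether are converted in the body, at 20 µg/mL for 4 h, and in 3 control wells they received the solvent DMSO at 0.1% for the same time. The DMSO content of the DHA wells is not stated in the labels. Poly(A) RNA was sequenced to between 14291726 and 18938456 counts per library. All wells hold the same line, and nothing in the labels says that they came from separate cultures, so p-values cover only well-to-well spread, which could be technical.

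Mitotic entry is driven by CDK1 bound to cyclin A or cyclin B, and anaphase begins when the spindle checkpoint releases CDC20 to activate the anaphase-promoting complex, a ubiquitin ligase. Most of these genes are transcribed periodically: their transcripts build up late in the cell cycle, when the transcription factors B-MYB and FOXM1 bind with the MuvB complex at a promoter element called the CHR, and they are held down in quiescent or arrested cells by the DREAM complex at the same element. Tumour lines that divide fast, such as colorectal lines, therefore carry them at high levels.

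After 4 h of DHA, most mitotic transcripts were lower. Together the 48 genes took 0.547%, 0.497% and 0.553% of all counts in DHA libraries 1 to 3, against 0.870%, 0.818% and 0.843% in control libraries 1 to 3. In CPM, the usual scale for a gene's share of its library's counts, that is 5472, 4969 and 5534 in DHA and 8696, 8176 and 8432 in control libraries. The groups did not overlap, and the mean of the DHA libraries was 0.631 of that of the controls. Each gene was then tested within a fit across all genes (edgeR's quasi-likelihood test), and a gene is said to have risen or fallen where its p-value, adjusted by Benjamini and Hochberg's method over 15811 genes, was under 0.05. The fit scales libraries by TMM, whose factors (0.957 to 0.986 in DHA, 1.032 to 1.038 in control libraries) raise each log2 fold change above the one read from CPM: the median over all tested genes was 0.01 with them and -0.086 with library totals alone. All 48 passed the filter on low counts. Of them, 39 fell, or 81.2%, where 30.1% of all tested genes fell; 0 rose, where 29.6% of all tested genes rose, and 9 did not pass. At an unadjusted p under 0.05, 1 (CDC25B) was higher in edgeR. DESeq2 called 0 higher at an adjusted p under 0.05. The median log2 fold change (DHA over control) of the 48 was -0.54, beside 0.01 over all tested genes, and their values ran from -1.17 for TOP2A to 0.17 for CDC25B. The falls were mostly of less than 2-fold: 3 of the 48 (CENPF, CENPI and TOP2A) fell by a log2 of 1 or more, where 4.96% of all tested genes did, and these 3 are also the ones that the authors' deposited table lists, at -1.05, -1.03 and -1.18. In CPM, the highest DHA library lay below the lowest control library for 41 of 48 genes, where 38.4% of all tested genes had such a gap. In RNA from whole wells, fewer cells in G2 and mitosis and less of these transcripts per cell cannot be told apart.

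**Figure D1:**
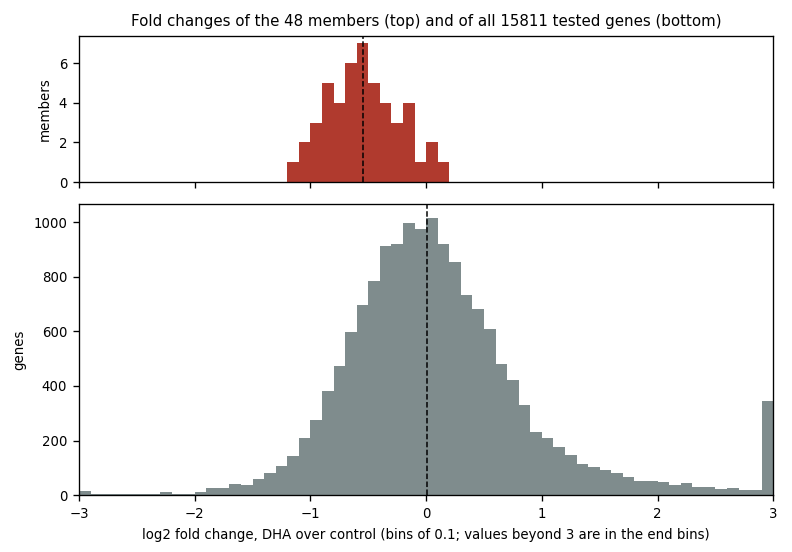
Number of genes (vertical axis) by log2 fold change of DHA over control in bins of 0.1, for the 48 mitosis and kinetochore genes (top) and for all 15811 tested genes (bottom), with a dashed line at each median. The 48 genes lie between -1.17 and 0.17 around a median of -0.54, while all tested genes centre on 0.01.

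Promoters of these genes share short sequence features. Windows from 250 bases before to 50 bases after an annotated start were taken from RefSeq (GRCh38.p14), where 42 of the 48 names matched. The CHR core was searched as TTTGAA or TTCGAA and the CCAAT box, bound by the factor NF-Y, as CCAAT, each on both strands. At least 1 window held TTTGAA or TTCGAA for 33 of the 42 genes (78.6%), where 15.2% of the tested genes with a window and 19.5% of all genes in the promoter table did. CCAAT was found for 33 of 42 (78.6%), where 42.7% of tested genes and 39.7% of all genes held it, and both motifs for 27 of 42 (64.3%), beside 6.29% and 7.85%. Among the 42, the median log2 fold change was -0.56 for the 33 with TTTGAA or TTCGAA and -0.75 for the 9 without; 27 of the 33 and 7 of the 9 fell. A match is a run of letters, not a tested binding site. Shown are the 3 genes with the smallest adjusted p among those whose window holds a CHR core, TOP2A (chr17:40417847-40418146, minus strand), CENPF (chr1:214602945-214603244, plus strand) and ASPM (chr1:197146620-197146919, minus strand), and, for contrast, CDC20 (chr1:43358731-43359030, plus strand), which has the largest adjusted p of the 42. Each runs 5′ to 3′ along its gene, with the CHR core, the CCAAT box and their reverse complements in capitals.
TOP2A: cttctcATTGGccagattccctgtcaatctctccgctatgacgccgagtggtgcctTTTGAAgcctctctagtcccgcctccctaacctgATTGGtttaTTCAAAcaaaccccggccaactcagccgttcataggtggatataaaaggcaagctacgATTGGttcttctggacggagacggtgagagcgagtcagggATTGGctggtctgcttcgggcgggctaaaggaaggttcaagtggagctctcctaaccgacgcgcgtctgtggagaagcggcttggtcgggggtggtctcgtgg
CENPF: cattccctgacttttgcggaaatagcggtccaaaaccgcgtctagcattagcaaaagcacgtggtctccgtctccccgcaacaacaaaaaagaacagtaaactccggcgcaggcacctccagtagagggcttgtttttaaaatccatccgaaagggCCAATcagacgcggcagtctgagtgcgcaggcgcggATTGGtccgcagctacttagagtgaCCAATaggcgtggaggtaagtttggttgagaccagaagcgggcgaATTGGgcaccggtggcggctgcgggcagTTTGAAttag
ASPM: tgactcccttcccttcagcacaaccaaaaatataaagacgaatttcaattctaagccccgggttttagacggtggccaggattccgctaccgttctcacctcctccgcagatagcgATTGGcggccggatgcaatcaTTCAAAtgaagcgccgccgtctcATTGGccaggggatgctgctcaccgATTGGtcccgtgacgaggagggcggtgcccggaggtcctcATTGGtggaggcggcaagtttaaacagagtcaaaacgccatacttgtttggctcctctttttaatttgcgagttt
CDC20: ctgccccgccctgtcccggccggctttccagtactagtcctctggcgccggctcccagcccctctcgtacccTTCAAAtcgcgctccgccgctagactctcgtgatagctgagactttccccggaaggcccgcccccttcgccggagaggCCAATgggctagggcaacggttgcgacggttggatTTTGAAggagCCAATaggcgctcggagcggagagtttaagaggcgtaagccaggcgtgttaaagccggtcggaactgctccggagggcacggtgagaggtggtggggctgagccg
Positions are those of the leftmost base, counted from 1 at the annotated start and from -1 at the base before it. TOP2A's window held TTTGAA on the gene's own strand at -194, a reverse copy at -151, and 4 CCAAT boxes, all of them reversed. In CENPF the CHR core lay at 41, behind 4 CCAAT boxes, and in ASPM a reverse copy lay at -113, among 4 reversed CCAAT boxes. CDC20 carried the same letters as the genes that fell, with CHR cores at -178 and -65 and CCAAT boxes at -100 and -55, while its transcript level did not pass the test. That contrast depended on the setting. With an offset for GC content and transcript length, CDC20 passed as lower, at -0.47, beside -0.45 for ASPM.

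Of 8 genes for cyclins, entry kinases and phosphatases, 6 fell. The share of all tested genes that fell, 30.1%, stands beside this count and those of the role groups below. Cyclin A2 (CCNA2), which pairs with CDK1 ahead of cyclin B, had 90.4, 71.0 and 87.2 CPM in DHA libraries 1 to 3, against 173, 149 and 166 CPM in control libraries 1 to 3. Every DHA library lay far below the lowest control, and the log2 fold change was -0.88 ± 0.10 (SE), with an adjusted p of 1.83e-05. CDK1 itself had 69.3, 75.5 and 63.2 CPM with DHA and 127, 109 and 124 CPM in controls; the groups were apart, and it fell by 0.69 ± 0.083 on the log2 scale. AURKA, the centrosomal kinase that activates PLK1 in late G2, had 79.5, 64.3 and 68.2 CPM in DHA and 121, 105 and 125 CPM in control libraries. Its highest DHA value was well under its lowest control value, and it fell by 0.63 ± 0.098. PLK1, which promotes entry and centrosome maturation, fell by 0.53 ± 0.099, and the B-type cyclins CCNB2 and CCNB1 fell by 0.52 ± 0.080 and 0.47 ± 0.085. The other two genes are CDC25 phosphatases, which remove the inhibitory phosphates from CDK1, and neither passed. CDC25C, at a low level, had 10.6, 9.67 and 8.89 CPM in the DHA libraries, against 11.3, 10.6 and 13.1 CPM in the controls. Values of the groups overlapped narrowly, and the log2 fold change of -0.17 ± 0.13 had an adjusted p of 0.285. CDC25B had a log2 fold change of 0.17 ± 0.072 and an adjusted p of 0.0612 in the same test; it passed as higher with DESeq2's size factors, with a filter at 1 CPM in 3 libraries and without DHA library 2, and its value was -0.14 with an offset for GC content and transcript length.

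**Figure D2:**
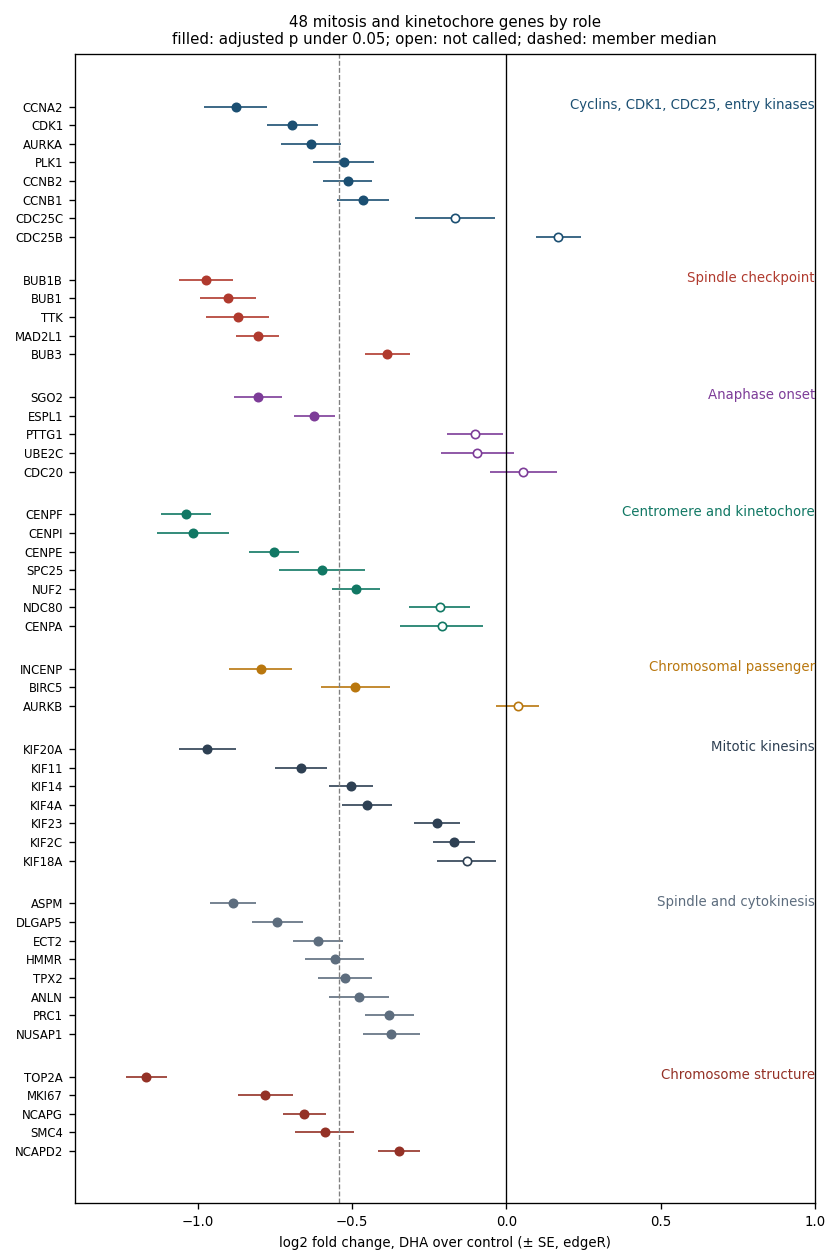
Log2 fold change of DHA over control for each of the 48 genes (points, with bars of 1 SE from edgeR), grouped by role; filled points passed an adjusted p of 0.05 and open points did not, and the dashed line is the median of the 48. All 5 checkpoint genes, all 8 spindle and cytokinesis genes and all 5 chromosome structure genes are filled, whereas 3 of 5 anaphase genes are open and lie near 0.

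Of the 48, 5 genes were grouped here under the spindle assembly checkpoint, and all 5 fell. This pathway keeps CDC20 from activating the anaphase-promoting complex until every kinetochore is attached. CDC20 itself was grouped under anaphase onset and did not pass. The checkpoint gene MAD1L1, not among the 48, rose by 0.88 ± 0.094. MAD2L1, the subunit that closes around CDC20, had 58.0, 57.2 and 57.7 CPM with DHA and 112, 101 and 111 CPM in controls. The DHA libraries agreed closely with each other and stood far below the controls, a fall of 0.81 ± 0.070 (log2) with an adjusted p of 1.95e-06. BUB1B, the checkpoint kinase-like subunit BubR1, had 74.4, 64.8 and 79.6 CPM in DHA and 160.1, 149 and 151 CPM in control libraries. BUB1, the kinase that marks centromeric chromatin, had 105, 84.4 and 97.9 CPM in the DHA libraries, against 203, 184 and 188 CPM in the controls. For both genes the groups were widely apart, and they fell by 0.98 ± 0.087 and 0.90 ± 0.091. TTK (MPS1), the kinase that starts checkpoint signalling, fell by 0.87 ± 0.10. BUB3, the adaptor that carries BUB1 and BUB1B to kinetochores, had 173, 197 and 179 CPM with DHA and 257, 240.0 and 269.9 CPM in controls. Groups did not overlap, and the fall of 0.39 ± 0.073 was the least of the 5; with the GC and length offset it was -0.083 and no longer passed.

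Of 5 genes grouped under anaphase onset and sister chromatid separation, 2 fell and 3 did not pass, where 30.1% of all tested genes fell. That count depended on the setting: with the GC and length offset all 5 were lower, where 32.6% of all tested genes were. SGO2, a shugoshin that protects centromeric cohesin, had 38.0, 38.1 and 41.2 CPM in DHA and 70.3, 71.9 and 77.0 CPM in control libraries. ESPL1, the protease separase that cuts cohesin, had 82.5, 84.5 and 82.7 CPM in the DHA libraries, against 144, 130.0 and 137 CPM in the controls. DHA values of both genes lay under all control values, with falls of 0.81 ± 0.077 and 0.62 ± 0.067. PTTG1, the securin that keeps separase inactive, had 77.1, 71.9 and 74.8 CPM with DHA and 91.9, 73.8 and 90.8 CPM in controls. Here control library 2 lay within the range of the DHA libraries, and the log2 fold change was -0.10 ± 0.091 with an adjusted p of 0.359. CDC20 had 275, 283 and 282 CPM in DHA and 322, 231 and 313 CPM in control libraries. The DHA libraries were alike, but the controls spread widely around them, control library 2 being lower than any DHA library and the other two higher. Its log2 fold change was 0.054 ± 0.11 with an adjusted p of 0.693, and it was -0.10 without control library 2 and -0.042 with library totals alone. UBE2C, the E2 enzyme that works with the anaphase-promoting complex, had a log2 fold change of -0.095 ± 0.12, which was 0.062 without DHA library 2. With the GC and length offset, CDC20, UBE2C and PTTG1 passed as lower, at -0.47, -0.49 and -0.42; PTTG1 also passed without control library 2, at -0.21.

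At centromeres and kinetochores 5 of 7 genes fell, where 30.1% of all tested genes did. CENPF (ENSG00000117724, chromosome 1, 214603195 to 214664588), a large coiled-coil protein of the outer kinetochore that builds up in G2, had 226, 202 and 232 CPM in the DHA libraries, against 496, 496 and 458 CPM in the controls. Every DHA library lay far below every control, and CENPF fell by 1.04 ± 0.080 with an adjusted p of 8.3e-07. CENPI, a subunit of the constitutive inner centromere network, had 8.10, 7.03 and 7.0 CPM with DHA and 16.2, 16.3 and 15.3 CPM in controls, the lowest level of this role group. It fell by 1.02 ± 0.12, with no overlap between the groups. CENPE, the kinesin that carries chromosomes to the spindle equator, had 52.0, 49.4 and 56.9 CPM in DHA and 91.8, 101 and 92.7 CPM in control libraries. Again the groups were apart, and it fell by 0.75 ± 0.080. In the NDC80 complex, which grips microtubules, SPC25 and NUF2 fell by 0.60 ± 0.14 and 0.49 ± 0.078, while NDC80 had a log2 fold change of -0.22 ± 0.099 and an adjusted p of 0.0795 although its CPM values did not overlap. NDC80 passed as lower in 4 of 14 alternatives (library totals alone, no low-count filter, limma, and without DHA library 3). CENPA, the histone H3 variant that marks centromeres, had 16.5, 22.6 and 16.5 CPM in the DHA libraries, against 20.9, 21.5 and 26.5 CPM in the controls. DHA library 2 stood within the control range and apart from the other DHA libraries, and the log2 fold change of -0.21 ± 0.14 had an adjusted p of 0.201; CENPA passed as lower without that library, without the low-count filter and with the GC and length offset, which gave -0.50.

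The chromosomal passenger complex, which corrects faulty attachments and guides cytokinesis, had 2 of 3 genes lower, where 30.1% of all tested genes were. INCENP, its scaffold, had 108, 93.5 and 107 CPM with DHA and 212, 164 and 198 CPM in controls. All DHA values were below the controls, and INCENP fell by 0.80 ± 0.10. BIRC5 (survivin), the subunit that docks the complex on chromatin, had 97.8, 129 and 97.2 CPM in DHA and 175, 141 and 171 CPM in control libraries. DHA library 2 was the highest of its group and approached control library 2, though without overlap, and BIRC5 fell by 0.49 ± 0.11 with an adjusted p of 0.00259. AURKB, the kinase of the complex, had 84.1, 81.0 and 83.1 CPM in the DHA libraries, against 88.1, 81.5 and 89.1 CPM in the controls. Its groups overlapped, and the log2 fold change was 0.036 ± 0.069 with an adjusted p of 0.673. With library totals alone the value was -0.060, and with the GC and length offset AURKB passed as lower, at -0.41.

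Of 7 mitotic kinesins, motor proteins that move along microtubules, 6 fell, where 30.1% of all tested genes did. KIF20A, which works at the central spindle, had 69.5, 57.2 and 72.1 CPM with DHA and 144, 137 and 136 CPM in controls. KIF11, the motor that pushes spindle poles apart, had 74.3, 61.9 and 70.0 CPM in DHA and 119.9, 111 and 119 CPM in control libraries. KIF14, needed for cytokinesis, had 58.7, 53.9 and 58.3 CPM in the DHA libraries, against 88.3, 85.8 and 84.9 CPM in the controls. In each case the DHA libraries were all under the controls, with falls of 0.97 ± 0.093, 0.67 ± 0.085 and 0.50 ± 0.072, the last of which did not pass with the GC and length offset, at -0.15. KIF4A, which binds chromosome arms, fell by 0.45 ± 0.081. Smaller falls belonged to the centralspindlin motor KIF23, by 0.23 ± 0.075, and to the depolymerase KIF2C, by 0.17 ± 0.068. Neither held throughout: of 14 alternative settings, KIF2C (adjusted p 0.0481) missed the threshold in 9 and KIF23 in 5, where the offset gave KIF23 a value of 0.007. KIF18A, which dampens chromosome movements, had 75.4, 61.4 and 75.8 CPM with DHA and 83.4, 87.6 and 77.7 CPM in controls. Groups were separate in CPM by a small margin, but the log2 fold change was -0.13 ± 0.096 with an adjusted p of 0.266; it passed as lower when library totals replaced the TMM scaling and in limma on log2(CPM + 1), and its value was 0.005 without DHA library 2 and 0.145 with the offset.

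**Figure D3:**
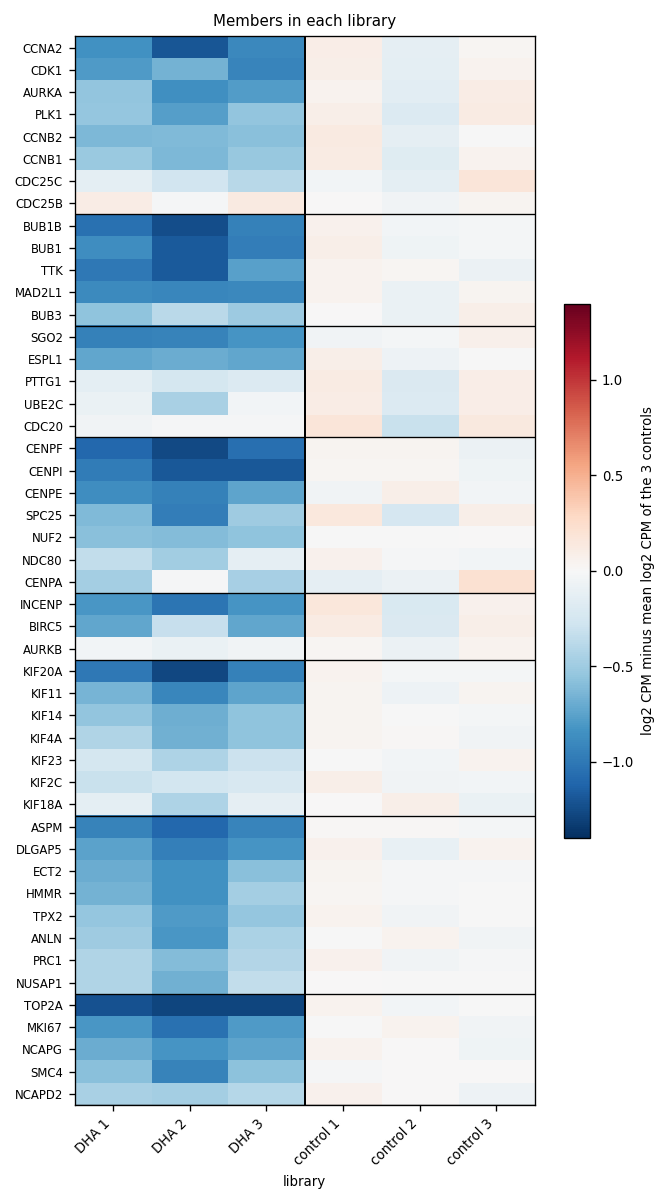
Log2 CPM of each of the 48 genes (rows, in the role order of the fold change plot, separated by lines) in the 3 DHA and 3 control libraries (columns), minus the mean log2 CPM of the 3 controls, from blue (lower) to red (higher). The DHA columns are blue for nearly all rows, deepest for TOP2A, CENPF and CENPI, and DHA library 2 is the deepest of its group in most rows.

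Spindle assembly and cytokinesis genes fell in 8 of 8 cases. ASPM, which focuses spindle poles, had 85.1, 75.8 and 85.9 CPM in DHA and 165, 164 and 159 CPM in control libraries. DLGAP5 (HURP), which stabilises kinetochore fibres, had 63.1, 54.6 and 59.8 CPM in the DHA libraries, against 111, 98.1 and 109 CPM in the controls. ECT2, the exchange factor that activates RhoA at the division plane, had 118, 106 and 128 CPM with DHA and 196, 189.6 and 189 CPM in controls. No DHA value of these genes reached a control value, and they fell by 0.89 ± 0.075, 0.74 ± 0.083 and 0.61 ± 0.081. The least changed was NUSAP1, a microtubule-bundling protein, with 146, 122 and 155 CPM in DHA and 196, 195 and 195 CPM in control libraries. Its controls were nearly identical and all above the DHA libraries, and it fell by 0.37 ± 0.091 with an adjusted p of 0.00385. Between these were HMMR, a spindle-associated hyaluronan receptor, at -0.56 ± 0.096, the spindle nucleation factor and AURKA activator TPX2 at -0.52 ± 0.088, the contractile ring scaffold ANLN at -0.48 ± 0.098 and the microtubule cross-linker PRC1 at -0.38 ± 0.079. The call of ANLN did not hold with the GC and length offset, at -0.21.

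Genes of chromosome structure fell in 5 of 5 cases and held the largest fall of the 48 without the offset. TOP2A (ENSG00000131747, chromosome 17, 40388516 to 40417950, minus strand), the topoisomerase that untangles sister chromatids, had 141, 136 and 136 CPM in the DHA libraries, against 343, 321 and 328 CPM in the controls. Libraries within each group were alike and the groups far apart, a fall of 1.17 ± 0.067 with an adjusted p of 8.65e-08. MKI67, the Ki-67 protein that coats mitotic chromosomes and serves as a marker of proliferation, had 775, 663 and 793 CPM with DHA and 1364, 1422 and 1323 CPM in controls. NCAPG, a condensin I subunit, had 88.5, 81.0 and 86.0 CPM in DHA and 148, 144 and 138 CPM in control libraries. Neither gene had overlapping groups, and they fell by 0.78 ± 0.089 and 0.66 ± 0.070. SMC4, the ATPase shared by both condensins, fell by 0.59 ± 0.097, a call that did not hold with the GC and length offset, at -0.19. NCAPD2, another condensin I subunit, had 195, 192 and 202 CPM in the DHA libraries, against 279, 269 and 255 CPM in the controls. It fell by 0.35 ± 0.068, also without overlap.

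Levels were compared between genes only per length, as CPM per kilobase of annotated exon (RPKM, calculated here). CDC20 stood highest at 137 ± 2.11 RPKM in DHA and 142 ± 24.6 RPKM in controls (SD, n = 3 each), and TPX2 came next in controls, at 76.9 ± 7.71 and 118 ± 4.36 RPKM in DHA and control libraries; in controls the difference between the pair was within the spread of CDC20. MKI67 followed in controls, at 58.1 ± 5.5 and 106.9 ± 3.87 RPKM. UBE2C, at 89.8 ± 13.4 and 102.6 ± 11.6 RPKM, did not differ from MKI67 in controls by more than its spread. In DHA the mean of UBE2C was above those of TPX2 and MKI67, though its difference from TPX2 was within its spread. At the bottom were CENPI, at 1.71 ± 0.146 in DHA and 3.69 ± 0.124 RPKM in controls, and CDC25C, at 2.91 ± 0.257 and 3.49 ± 0.383 RPKM, whose control levels did not differ by more than their spread. Genes that fell and genes that did not pass both stood near the top and near the bottom of this order.

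The libraries of a group did not vary evenly. DHA library 2 was the lowest of its group for 36 of the 48 genes and the highest for 6 of them (CDK1, BUB3, CDC20, ESPL1, CENPA and BIRC5). By a chi-square per gene over all tested genes, it differed more from DHA libraries 1 and 3 (14.6 and 14.8) than those did from each other (1.66), and control library 2 differed more from controls 1 and 3 (8.78 and 8.39) than those did from each other (3.28). Control library 2 was the lowest of its group for 30 of the 48, most of all for CDC20, at 0.727 of the mean of the other controls. Without DHA library 2, 38 of the 48 fell and 1 rose, with a median of -0.44, and without control library 2, 40 fell and 0 rose, with a median of -0.61. Leaving out both, a choice made after the data were seen, gave 41 lower and 1 higher, with a median of -0.52. Of all genes tested, 28.7% were lower without DHA library 2, 28% without control library 2 and 31.6% without both.

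Fold changes moved with base composition and transcript length, both among the 48 and over all genes. Across the 48, the log2 fold change correlated with the GC content of the longest annotated transcript at a Pearson r of 0.45 and a Spearman rho of 0.40, and with the log2 of exonic length at -0.47 and -0.44. These are descriptions across genes measured in the same 6 libraries, and genes are not independent replicates. Over the 15766 tested genes with an annotated GC content the same r with GC was 0.28 and the rho was 0.38. With the log2 of exonic length they were -0.24 and -0.28, over 15773 tested genes. The 10 genes with 50% GC or more had a median of -0.26, and the 38 below had a median of -0.61; over all tested genes the medians of these classes were 0.24 and -0.20. With an offset per library for GC and length, 39 of the 48 were again lower and 0 higher, where 32.6% and 23.6% of all tested genes were, with a median of -0.46 beside -0.076 over all tested genes. In that fit, 34 genes kept their call, ANLN, BUB3, KIF14, KIF23 and SMC4 lost it, and AURKB, CDC20, CENPA, PTTG1 and UBE2C gained it. The correlations across the 48 then changed sign. With GC content they were -0.27 (Pearson) and -0.30 (Spearman), and with the log2 of exonic length 0.14 and 0.16. The largest falls then were those of INCENP and KIF20A, at -1.10 and -1.04, and TOP2A was at -0.86. What links fold change to GC content and length in these libraries was not tested.

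**Figure D4:**
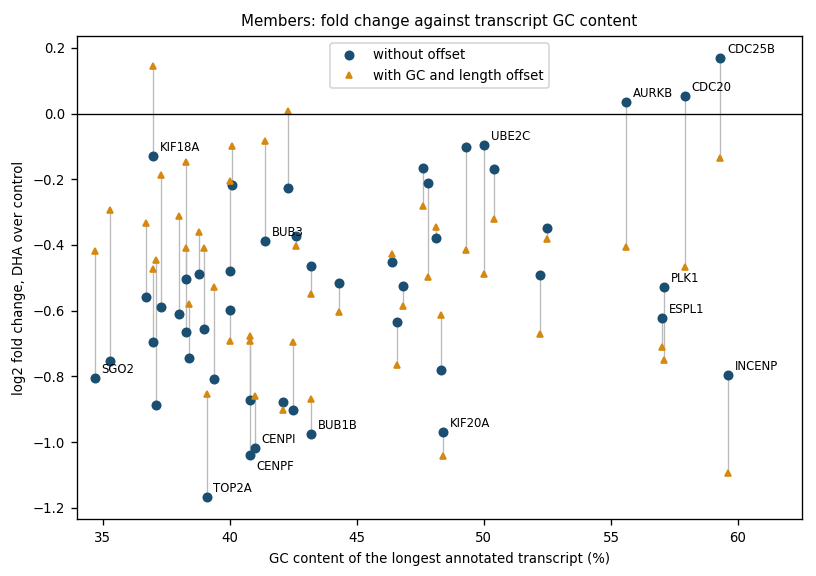
Log2 fold change of DHA over control (vertical axis) against GC content of the longest annotated transcript in percent (horizontal axis) for the 48 genes, without (circles) and with (triangles) an offset for GC and length, with a line joining the values of a gene. Without the offset the GC-rich genes CDC25B, CDC20 and AURKB lie above 0 (CDC20 and AURKB lie below 0 with library totals alone), and with it they lie at -0.14, -0.47 and -0.41.

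Other mitotic genes, in 6 lists of 123 genes of which 122 were tested, went both ways. In these lists 61 genes fell, 22 rose and 39 were not called, and the median was -0.24. Among 34 other centromere and kinetochore genes, 12 fell and 8 rose, shares near those of all tested genes (30.1% and 29.6%). The scaffold KNL1, which docks BUB1 and BUB3, fell by 1.04 ± 0.075, and the SKA complex subunits SKA3 and SKA2 fell by 0.54 ± 0.10 and 0.46 ± 0.076, while the checkpoint gene MAD1L1, partner of MAD2L1, rose by 0.88 ± 0.094, and CENPT, of the inner kinetochore, and MIS12, of the outer kinetochore, rose by 0.72 ± 0.089 and 0.63 ± 0.088. Of 17 subunits and regulators of the anaphase-promoting complex, 5 fell and 6 rose, again near the shares of all tested genes, and with the GC and length offset 3 fell and 4 rose. CDC27, ANAPC1 and CDC23 fell by 0.77 ± 0.069, 0.62 ± 0.077 and 0.36 ± 0.087, and UBE2S, the E2 enzyme that extends its ubiquitin chains, ANAPC15 and ANAPC2 rose by 1.03 ± 0.20, 0.99 ± 0.20 and 0.50 ± 0.074; the rise of ANAPC2 did not pass with the offset. UBE2S varied most in the treated wells, with 393, 758 and 452 CPM in DHA and 256, 238 and 345 CPM in controls.

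Condensin and cohesin, the ring complexes that compact chromosomes and hold sisters together, had 13 of 16 further members lower and 1 higher, or 10 and 2 with the offset. Of all tested genes, 30.1% were lower and 29.6% higher, or 32.6% and 23.6% with the offset. The cohesin acetyltransferase ESCO2 fell by 0.81 ± 0.084, the cohesin subunit RAD21 by 0.71 ± 0.064 and the condensin II subunit NCAPD3 by 0.71 ± 0.071, whereas NCAPH2, of the same condensin II, rose by 0.80 ± 0.082 (0.31 with the offset). Of 19 other spindle and cytokinesis genes 12 fell and 1 rose, with the microtubule-binding CKAP2L and CKAP2 lower by 1.05 ± 0.086 and 0.99 ± 0.10, the augmin subunit HAUS6 lower by 0.90 ± 0.10 and another augmin subunit, HAUS8, higher by 0.43 ± 0.12.

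Among 15 other regulators of entry and exit, 8 fell and 4 rose, where 30.1% of all tested genes fell and 29.6% rose. The gene of this list with the largest rise acts against CDK1. WEE1, the kinase that phosphorylates and inhibits CDK1, had 176, 186 and 183 CPM with DHA and 67.3, 66.9 and 71.3 CPM in controls. All DHA libraries lay more than 2-fold above all controls, and WEE1 rose by 1.51 ± 0.066 on the log2 scale with an adjusted p of 1.07e-08. CKS2, a small CDK-binding subunit, rose by 1.17 ± 0.14, and MASTL, the kinase that restrains the phosphatase opposing CDK1, rose by 0.50 ± 0.084. CCNF, GTSE1 and ARPP19, the last a substrate of MASTL, fell by 0.89 ± 0.084, 0.79 ± 0.082 and 0.77 ± 0.069.

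Of 22 transcriptional regulators of mitotic genes, 21 were tested, 11 fell and 2 rose, where 30.1% of all tested genes fell and 29.6% rose. With the GC and length offset 12 fell and 4 rose, where 32.6% and 23.6% of all tested genes did. FOXM1, the activator of G2 and mitosis genes, had 128, 111 and 131 CPM in DHA and 189, 175 and 194 CPM in control libraries. Groups were apart, and FOXM1 fell by 0.50 ± 0.085. MYBL2 (B-MYB) had a log2 fold change of 0.044 ± 0.065 and an adjusted p of 0.58, and passed as lower with the GC and length offset, at -0.44. The pocket proteins RBL2, RB1 and RBL1 fell by 0.77 ± 0.13, 0.66 ± 0.067 and 0.32 ± 0.093, and the E2F partners TFDP2 and TFDP1 fell by 1.05 ± 0.084 and 0.50 ± 0.068. The E2F genes were mixed: E2F5 and E2F2 fell by 0.95 ± 0.13 and 0.55 ± 0.070, E2F3 rose by 0.19 ± 0.075, and E2F1, E2F4, E2F7 and E2F8 did not pass, at 0.21 ± 0.11, -0.098 ± 0.070, 0.19 ± 0.077 and -0.16 ± 0.11. The MuvB subunits RBBP4 and LIN9 fell by 0.62 ± 0.065 and 0.25 ± 0.089, while its subunits LIN52 and LIN54 did not pass. LIN52 had means of 18.4 CPM in DHA and 21.0 CPM in controls, and LIN54 had 37.9 and 46.6 CPM. LIN37 was not tested, with 3, 9 and 7 counts in DHA libraries and 2, 4 and 2 counts in control libraries. Of the NF-Y subunits NFYA fell by 0.19 ± 0.071, NFYC rose by 0.24 ± 0.073 and NFYB did not pass. Several of these calls were fragile: of 14 alternative settings, that of RBL1 did not hold in 1, NFYC in 5, LIN9 in 7, NFYA in 9 and E2F3 in 10.

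**Figure D5:**
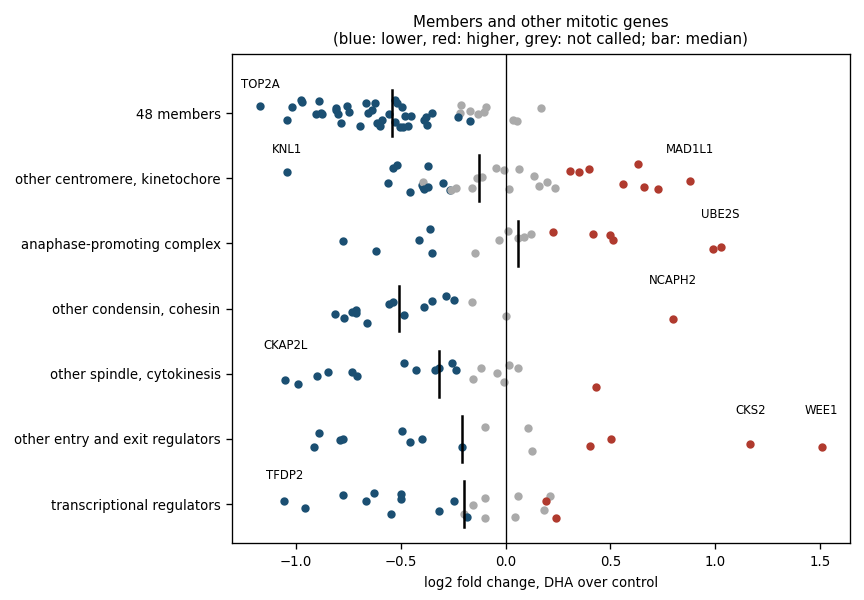
Log2 fold change of DHA over control for the 48 genes (top row) and for 6 lists of other mitotic genes, each point a gene, blue where it fell, red where it rose and grey where it did not pass, with a bar at each median. The 48 genes hold no red point, while WEE1 at 1.51, CKS2 at 1.17 and UBE2S at 1.03 are the highest points of the other lists.

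The cells' own markers were present: 8 markers of colon epithelium summed to between 5476 and 5622 CPM in DHA and between 4241 and 4635 CPM in control libraries, with 0 of them at 0 in all libraries. Nearly all of that sum was KRT8, KRT18 and KRT19; CDH1 was lower in DHA, at 74.3, 79.9 and 74.7 CPM against 93.2, 108 and 95.3 CPM in controls, and VIL1 and KRT20 were near 0. The part of these markers in the results was not tested. Of 5 fibroblast markers, COL1A2, DCN and LUM were at 0 in all libraries and the sum, nearly all of it COL1A1, ran from 70.6 to 93.1 CPM in DHA and from 21.0 to 29.6 CPM in controls; its part in the results was not tested. Leukocyte markers (4, with PTPRC at 0) summed to at most 0.473 and 0.317 CPM in DHA and control libraries, and endothelial markers (3) to at most 1.86 and 1.96 CPM. Where annotated copies of the 48 genes were found by name among the counted genes, they took few reads. The highest was the pseudogene CDC20P1, at means of 0.619 and 0.723 CPM in DHA and controls. Other copies, such as AURKAP1 and SMC4P1, were not found by name, so their reads are not known. The sources used here do not give how counting treated overlapping genes and strand, so reads cannot be told apart where exons overlap: on the opposite strand LCORL covers 33.1% of the exonic length of NCAPG and TRIM59 covers 18.5% of that of SMC4, and on the same strand other annotated genes cover 57.6% of PRC1 and 62.2% of NUSAP1. LCORL had means of 14.3 CPM in DHA and 26.9 CPM in controls, and TRIM59 had 20.8 and 30.9 CPM, both below the genes that they overlap. Smaller overlaps involve more abundant neighbours: FAM53C, on the opposite strand, covers 8.8% of CDC25C and had 164 CPM in DHA and 105 CPM in controls, against means of 9.72 and 11.7 CPM for CDC25C, and SLC35F6, on the same strand, covers 7.0% of CENPA and had 41.0 and 57.6 CPM, against 18.5 and 23.0 CPM for CENPA.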

How the data were processed

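Poly(A) RNA was isolated and libraries were made with NEBNext kits, per the labels' protocols; 1 DHA sample's title reads DNA, and its treatment label was used. The authors deposited whole-number counts per gene for the 6 libraries, unnormalised as far as the values show, and a table of their own comparison with log2 fold changes and adjusted p-values for genes of at least 2-fold change; HISAT2 and DESeq2 1.18.1 are named in the submitters' processing notes. The genome build, annotation, counting tool and strand setting were not given in the sources used. Of the 40846 gene IDs, 40715 were found in GENCODE 29 (GRCh38), 96.97% with the same coordinates, including all 48 members. A second deposited table of normalised values was not used.

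Lines of annotation text (32) were dropped, and of 1696 rows that shared 143 names with identical counts 1 per name was kept. The counts were fitted with edgeR 4.0.16 in R 4.3.3 (filterByExpr, TMM, glmQLFit, glmQLFTest; DHA over control; no covariate), with Benjamini-Hochberg adjustment over all tested genes. Library totals were 14810697, 16653074 and 14291726 counts in DHA and 18938456, 15807037 and 16681847 counts in controls, and the biological coefficient of variation was 0.0902. Alternatives were DESeq2's size factors, library totals alone, DESeq2 1.42.0, other low-count filters, each library left out, a block for the replicate number, limma 3.58.1 on log2(CPM + 1), and an offset per library for GC content and exonic length fitted with mgcv 1.9.3. The scripts were tested on simulated data. The members and all gene lists were chosen with earlier results of these data known. Every member is named; values by library are given, in each role group, for the 3 smallest and the largest adjusted p, and of the other lists up to 3 genes per direction are named.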

Additional observations from a re-analysis of the deposited data

How the results depend on the processing

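The count of lower members ran from 37 to 41 of 48 over the alternatives: 38 with DESeq2 or its size factors, 41 with library totals alone, with no low-count filter or in limma, 39 with the GC and length offset, and 37 to 40 with 1 library left out. The share of all genes tested in a setting that were lower moved as well. It was 17.9% with DESeq2, 29% with its size factors, 35.5% with library totals alone and 16.3% with no low-count filter. In limma it was 35.8%, with the GC and length offset 32.6%, and with 1 library left out 26.3% to 28.7%. The count of higher members was 1 (CDC25B) with DESeq2's size factors, with a filter of 1 CPM in 3 libraries and without replicate 2 of both groups, and 0 to 1 with 1 library left out. The median of the members ran from -0.61 to -0.44 with 1 library left out. The summed level in DHA was 0.676 of that in controls with TMM library sizes. With the GC and length offset, 3 genes of the anaphase-promoting complex list were lower, and signs turned for 14 genes called with or without it (others turned uncalled in both), whose log2 values became -0.466 for CDC20, -0.406 for AURKB, 0.007 for KIF23, 0.009 for ZWILCH, -0.084 for BOD1, 0.05 for ANAPC4, -0.116 for FZR1, 0.082 for STAG1, 0.188 for PDS5B, 0.243 for NIPBL, -0.242 for CDCA5, -0.043 for PKMYT1, -0.443 for MYBL2 and -0.371 for E2F1. The cause was not tested. With a block for the replicate number, 38 members were lower and 8906 genes were called in all, against 9431 without it. Samples sharing a number correlated in their deviations at 0.025, -0.104 and -0.072, and DHA replicate 1 correlated best with control replicate 2, at 0.072, so the numbers were not taken to pair the samples.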

Other observations

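Counts of genes whose proteins act together were set against each other within each library, for pairs chosen after their values were seen and with no test. These ratios need no scaling between libraries, but they are not adjusted for GC content. INCENP had 1.29, 1.15 and 1.29 counts per count of its partner kinase AURKB in DHA libraries 1 to 3, against 2.41, 2.02 and 2.22 in control libraries 1 to 3. The checkpoint gene BUB1B had 0.27, 0.23 and 0.28 counts per count of its target CDC20 in DHA, against 0.50, 0.65 and 0.48 in controls; the genes have 43.2% and 57.9% GC, and with the GC and length offset their log2 fold changes were -0.87 and -0.47, beside -0.98 and 0.054 without it. CDK1 had 0.39, 0.41 and 0.35 counts per count of its inhibitory kinase WEE1 in DHA, against 1.89, 1.63 and 1.74 in controls. In each of these pairs the groups did not overlap. Because the pairs were picked with their values known, that gap says nothing about partner genes as such. Of single tested genes, 38.4% lay lower in DHA with such a gap in CPM, and the share among other pairs was not counted. For CCNB1 per count of CDK1, which form 1 kinase, the values were 2.106, 1.801 and 2.303 in DHA and 1.796, 1.706 and 1.755 in controls, so DHA library 2 lay just above control library 1.

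Subunits of condensin II differed in direction: NCAPD3 fell by 0.71 and NCAPG2 by 0.39 on the log2 scale, while NCAPH2 rose by 0.80. With the GC and length offset NCAPG2 did not pass, at -0.12, and NCAPH2 was at 0.31. By comparison, the condensin I subunits NCAPG, NCAPD2 and NCAPH fell by 0.66, 0.35 and 0.48. In the NDC80 complex all 4 subunits had negative values, of which NUF2 and SPC25 (-0.49 and -0.60) passed and NDC80 and SPC24 (-0.22 and -0.39) did not; the differences between subunits were not tested.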
